A study of Mus musculus with 13 samples.

Results

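Chemokine ligands are small secreted proteins that draw leukocytes along a gradient, and their genes were taken as every row of the deposited expression table whose symbol begins with Ccl, Cxcl or Cx3cl and ends in digits. This rule uses names and no measured value, but it was set with earlier results of these data known. It gave 11 of 11761 listed rows: the CC ligands Ccl2, Ccl6, Ccl7, Ccl9, Ccl11 and Ccl24, named for a pair of adjacent cysteines, and the CXC ligands Cxcl9, Cxcl10, Cxcl11, Cxcl12 and Cxcl14, in which a residue lies between the cysteines. The libraries hold RNA on ribosomes of adipocytes from epididymal white fat of Adipoq-NuTRAP mice on the C57BL/6J background, 3 from animals fed chow and 3 from animals fed a high-fat diet (HFD), each for 10 weeks. In such mice a Cre recombinase under the adiponectin gene's control switches on a GFP-tagged ribosomal protein in adipocytes, and an antibody against GFP recovers their ribosomes from whole-fat homogenate (translating ribosome affinity purification, TRAP), so RNA of other cells can be carried over. All libraries of both diets carry this reporter, and the labels used here give neither the age of the animals nor whether a library was 1 animal or a pool. The series also holds 7 chromatin samples, which were not analysed here.

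Chemokines act through receptors with 7 membrane spans on leukocytes, and they are held on heparan sulfate chains of the matrix and of vessel walls. CCL2 (MCP-1) and CCL7 (MCP-3) bind CCR2 and are known for calling monocytes from the blood into obese fat. CXCL9, CXCL10 and CXCL11 bind CXCR3 on T and NK cells and are classic interferon-gamma targets, and CXCL12 binds CXCR4 and the scavenging receptor ACKR3.

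The 6 libraries had effective sizes of 7430000 to 39400000 reads, as recovered from the steps between low values. Chow replicate 3 was the shallowest, where 1 read is worth 0.135 CPM (counts scaled to the library size) against 0.0254 to 0.0431 CPM in the other libraries. Chow replicate 2 stood apart in interferon-response genes: 15 of 18 rows of that list were highest there, and the list's summed level was 3405 CPM against 366 to 651 CPM in the other 5 libraries. Genes were tested where their mean over libraries reached 1 CPM, which 11643 did, and limma (Benjamini-Hochberg adjusted p under 0.05) called 35.1% of them, 2221 higher and 1863 lower in HFD. With equal library totals the split was 2513 higher and 1332 lower, and with libraries rescaled to the median adipocyte marker it was 4109 and 418. The median log2 difference of all genes was -0.004 as deposited, 0.10 with equal totals and 0.40 with the adipocyte scaling. The labels do not state that each replicate is another animal, and a p-value here covers only how far these libraries vary, in part perhaps for technical reasons.

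Most of the chemokine ligand genes that could be tested were higher on HFD, led by Ccl2 and Ccl7, while the interferon-linked CXC ligands were not. Of the 11 genes, 9 reached a mean of 1 CPM and were tested. Of these, 6 rose, 0 fell and 3 did not pass, where 19.1% of all genes tested rose and 16% fell. The filter uses the mean over both diets, so a gene low in chow could enter through HFD alone, as Ccl2 did (0.699 CPM in chow on average). Without the filter 6 of the 11 rose and 0 fell, against 2258 risen and 1854 fallen of all 11761 rows. The genes that rose were Ccl2, Ccl7, Ccl11, Ccl9, Ccl6 and Cxcl12, and in each of them every HFD library lay above every chow library, an order that 25.2% of all genes tested showed. The opposite order, which no ligand gene showed, held for 25% of all genes, and 50.2% had no overlap in either direction. The median log2 difference of the 9 tested genes was 1.63, on the log2(CPM + 1) scale used throughout, which understates the change of low genes. All 6 rises passed under each of the 15 alternative settings run. In these bulk libraries, more cells of a type and more RNA per cell cannot be told apart.

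**Figure D1:**
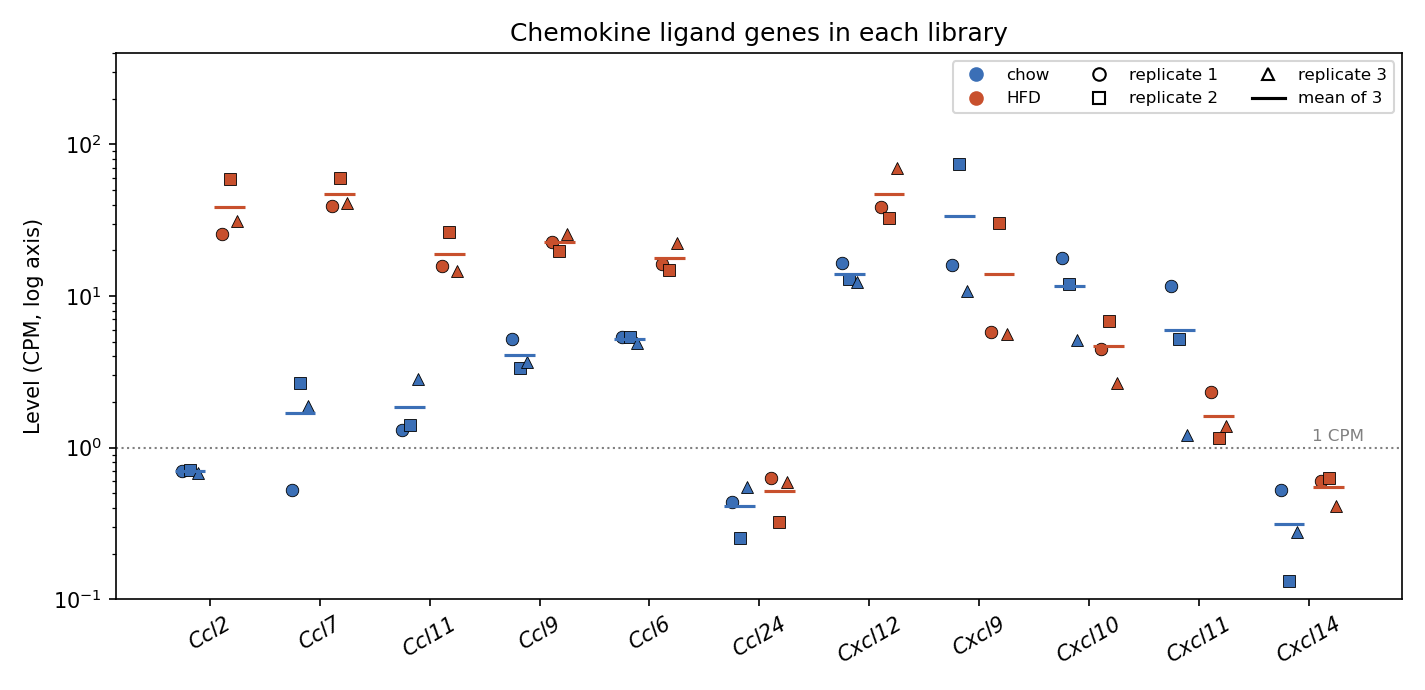
Level of each of the 11 chemokine ligand genes in CPM (log axis) in the 3 chow (blue) and 3 HFD (orange) libraries, with the mean of 3 as a bar and the replicate as the marker shape. The HFD libraries lie above all chow libraries for Ccl2, Ccl7, Ccl11, Ccl9, Ccl6 and Cxcl12, and the diets overlap for the other 5 genes. Of all genes tested, 25.2% had every HFD library above every chow library. Levels of different genes are not comparable here, since CPM is not per length.

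The monocyte-attracting ligand gene Ccl2 stood at 0.697, 0.717 and 0.683 CPM in chow replicates 1, 2 and 3 and at 25.8, 58.9 and 31.1 CPM in HFD replicates 1, 2 and 3, the order in which all values are given. The HFD mean was thus 55.2 times the chow mean, and HFD replicate 2 was the highest library. The chow values rest on 16, 23 and 5 reads, whose exact Poisson 95% intervals were 0.394 to 1.12, 0.449 to 1.06 and 0.218 to 1.57 CPM. The closeness of the chow values (0.699 ± 0.0170 CPM, SD, n = 3) is tighter than these counting intervals, which cover counting error only. With limma the log2 difference was 4.45 (SE 0.29, adjusted p 1.289e-05), the highest but 11 of all genes tested. The 2.28-fold spread among the HFD libraries was far smaller than the difference between diets.

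Ccl7, which encodes another CCR2 ligand, was at 0.525, 2.66 and 1.89 CPM with chow feeding, against 39.4, 60.1 and 40.8 CPM on HFD. It was highest in the same HFD library as Ccl2, replicate 2, and its chow values differed 5.06-fold. Those chow values came from 12, 86 and 14 reads, and the exact Poisson 95% interval of chow replicate 1 (0.267 to 0.904 CPM) did not meet those of replicates 2 (2.12 to 3.27 CPM) and 3 (1.03 to 3.16 CPM). The log2 difference was 4.21 (SE 0.32, limma adjusted p 2.633e-05). Ccl11, the gene of eotaxin, which attracts eosinophils through CCR3, was at 1.30, 1.42 and 2.85 CPM with chow feeding, against 15.8, 26.5 and 14.5 CPM on HFD. HFD replicate 2 was again the highest library, and the log2 difference was 2.79 (SE 0.29, limma adjusted p 0.0001368).

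Ccl9 and Ccl6 encode ligands of CCR1 found in rodents. Ccl9 was at 5.21, 3.34 and 3.66 CPM with chow feeding, against 22.6, 19.7 and 25.6 CPM on HFD, a log2 difference of 2.23 (SE 0.20, limma adjusted p 7.229e-05). Ccl6 was at 5.39, 5.39 and 4.86 CPM with chow feeding, against 16.2, 14.9 and 22.2 CPM on HFD, a log2 difference of 1.58 (SE 0.20, limma adjusted p 0.0003596). In contrast to Ccl2, Ccl7 and Ccl11, both were highest in HFD replicate 3 and lowest, among HFD libraries, in replicate 2. The last CC gene, Ccl24, which encodes eotaxin-2, stayed under 1 CPM in every library. It was at 0.438, 0.255 and 0.547 CPM with chow feeding, against 0.633, 0.321 and 0.595 CPM on HFD, 4 to 23 reads per library, and the diets overlapped. It was not tested, and in a fit without the filter on low genes its log2 difference was 0.10 (95% interval -0.52 to 0.72, limma adjusted p 0.806). That interval leaves a change in either direction open, on a scale that shrinks changes of genes under 1 CPM.

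The 5 CC genes that rose lie in 2 groups on chromosome 11 (RefSeq positions on GRCm38.p6, which is mm10). Ccl2 (82035577 to 82037452), Ccl7 (82045712 to 82047525) and Ccl11 (82057832 to 82062955) lie side by side, with 8259 and 10306 bases between neighbours. Ccl9 (83572917 to 83578636) and Ccl6 (83587886 to 83593087) lie 1509961 bases further on and 9249 bases apart. Between Ccl2 and Ccl6, 17 other genes were tested, of which 4 rose and 3 fell, near the shares over all genes. Their median log2 difference was 0.07. Among those that rose were the Schlafen gene Slfn2 (1.62) and Gas2l2 (2.64), both chosen after their values were seen. Ccl24 lies apart from these genes, on chromosome 5 at 135569935 to 135573123.

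The start regions of Ccl9 and Ccl6 are shown because these neighbours rose together and follow the same order across the HFD libraries. Each RefSeq window (GRCm38.p6) runs from 250 bases before to 50 bases after the gene's start, 5′ to 3′ on the gene's own strand, which is the minus strand for both, at chr11:83578587-83578886 for Ccl9 and chr11:83593038-83593337 for Ccl6. Capitals mark matches on either strand to the kappaB consensus (10 bases), an interferon-stimulated response element (GAAA and GAAA with 2 free bases between), an AP-1 site (TGANTCA) or a TATA box (TATAAA), and matches that overlap run together.
Ccl9: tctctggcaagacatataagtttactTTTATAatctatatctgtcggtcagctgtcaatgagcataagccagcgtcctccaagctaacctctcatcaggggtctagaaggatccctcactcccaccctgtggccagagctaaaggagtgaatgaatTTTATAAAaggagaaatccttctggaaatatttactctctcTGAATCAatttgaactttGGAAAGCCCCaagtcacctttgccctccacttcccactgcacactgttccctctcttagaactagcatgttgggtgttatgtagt
Ccl6: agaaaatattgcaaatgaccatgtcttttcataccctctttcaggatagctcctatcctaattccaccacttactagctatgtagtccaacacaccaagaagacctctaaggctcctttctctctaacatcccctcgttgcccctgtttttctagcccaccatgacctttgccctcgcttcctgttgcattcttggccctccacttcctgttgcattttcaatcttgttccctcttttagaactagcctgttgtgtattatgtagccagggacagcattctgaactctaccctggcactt
In the best local alignment of the windows 58 of 67 aligned bases were identical, from -59 to 15 in Ccl6 and from -18 to 49 in Ccl9 relative to the start. The other 14 pairs among the 6 members with a RefSeq window aligned over at most 31 bases. The Ccl9 window held a kappaB match at -35, an AP-1 match at -53 and TATA matches at -224, -94 and -92, whereas the Ccl6 window held none of the 4 motifs. Over all 32851 windows of this length, 8.46% held the kappaB match, 7.81% the AP-1 match and 13.6% the TATA match, so a match is a description of the letters only. Reads that fit more than 1 of the related chemokine genes could be split between them, and how the authors' counting treated such reads is not given in the sources used here.

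Cxcl12 was the CXC gene that rose. It encodes SDF-1, which holds CXCR4-bearing cells such as progenitors and lymphocytes in tissue niches. It was at 16.4, 12.9 and 12.4 CPM with chow feeding, against 38.6, 32.9 and 70.0 CPM on HFD, with HFD replicate 3 the highest library. The log2 difference was 1.63 (SE 0.26, limma adjusted p 0.001456). Cxcl12 lies on chromosome 6 at 117168535 to 117181368. Cxcl14, a ligand made by epithelia and fat, stayed under 1 CPM, at 0.525, 0.132 and 0.277 CPM with chow feeding, against 0.603, 0.633 and 0.415 CPM on HFD. It was not tested and rests on 2 to 20 reads per library. Without the filter its log2 difference was 0.25 (95% interval -0.38 to 0.88, limma adjusted p 0.519).

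The 3 CXCR3 ligand genes had lower means in HFD than in chow, but the diets' libraries overlapped for each and none passed. Cxcl9 (MIG) was at 16.1, 74.5 and 10.8 CPM with chow feeding, against 5.82, 30.5 and 5.58 CPM on HFD. The library numbered 2 was the highest of each diet, so that HFD replicate 2 lay above chow replicates 1 and 3. Cxcl10 (IP-10) was at 17.9, 12.0 and 5.13 CPM with chow feeding, against 4.47, 6.82 and 2.66 CPM on HFD. Here the overlap came from HFD replicate 2 and chow replicate 3. Cxcl11 (I-TAC) was at 11.6, 5.21 and 1.22 CPM with chow feeding, against 2.33, 1.16 and 1.39 CPM on HFD, and its chow values differed 9.51-fold. Chow replicate 3, the shallowest library, lay within the HFD range and held 9 reads of this gene.

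The log2 differences were -1.14 for Cxcl9 (95% interval -2.80 to 0.51, limma adjusted p 0.255), -1.09 for Cxcl10 (-2.02 to -0.16, adjusted p 0.0675) and -1.11 for Cxcl11 (-2.32 to 0.10, adjusted p 0.138). Cxcl10 and Cxcl11 passed as lower without chow replicate 3 (-1.54 with limma adjusted p 0.0132, and -1.78 with adjusted p 0.00988), with quantile normalization (adjusted p 0.0151 and 0.00977) and with voom weights (adjusted p 0.0188 and 0.0471). Without chow replicate 1 the differences were smaller, -0.73 for Cxcl10 (limma adjusted p 0.182) and -0.53 for Cxcl11 (adjusted p 0.396). On GRCm38.p6 the 3 genes lie together on chromosome 5, Cxcl9 at 92321331 to 92328079, Cxcl10 at 92346638 to 92348889 and Cxcl11 at 92359544 to 92363296. RefSeq annotates Cxcl11 as a transcribed pseudogene in this assembly. The spans of Cxcl10 and Cxcl11 overlap that of Art3, an ADP-ribosyltransferase gene, and the library preparation in the labels does not mark strand, so reads of overlapping exons could not be told apart. Art3 fell from 375, 385 and 416 CPM in chow to 147, 167 and 151 CPM in HFD (log2 difference -1.33, limma adjusted p 5.976e-05), with a far smaller spread among chow libraries than Cxcl10 or Cxcl11. Whether the exons overlap was not checked, and the part of Art3 reads in these values was not tested.

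The windows of Cxcl9 and Cxcl10 are shown since both are textbook interferon targets and yet were ordered differently across the chow libraries. Both are on the minus strand, at chr5:92328030-92328329 and chr5:92348840-92349139, drawn and marked as above.
Cxcl9: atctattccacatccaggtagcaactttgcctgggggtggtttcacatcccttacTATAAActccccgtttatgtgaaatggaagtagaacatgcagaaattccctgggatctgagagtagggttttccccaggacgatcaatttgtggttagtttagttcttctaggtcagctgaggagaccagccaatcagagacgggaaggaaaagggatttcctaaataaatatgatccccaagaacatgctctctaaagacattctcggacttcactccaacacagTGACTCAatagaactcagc
Cxcl10: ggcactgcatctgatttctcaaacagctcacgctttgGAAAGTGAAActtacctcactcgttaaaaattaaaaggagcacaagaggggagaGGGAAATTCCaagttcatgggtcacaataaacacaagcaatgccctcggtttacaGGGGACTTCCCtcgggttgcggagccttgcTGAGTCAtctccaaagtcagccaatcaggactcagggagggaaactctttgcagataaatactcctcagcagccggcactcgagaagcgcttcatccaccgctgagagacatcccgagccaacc
The Cxcl10 window held the interferon-stimulated response element at -213, which 3.44% of all windows held, together with overlapping kappaB matches at -104 and -103, a further kappaB match at -159 and an AP-1 match at -74. The Cxcl9 window held an AP-1 match at 32 and a TATA match at -195 and no other of the 4 motifs. They shared a run of 11 bases, cagccaatcag, which holds the letters of a CCAAT box and lay at -68 in Cxcl9 and -57 in Cxcl10.

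Genes that respond to interferon showed which libraries were high in that programme. Irf1, a transcription factor of the interferon response, was at 28.2, 113 and 23.8 CPM with chow feeding, against 31.1, 39.7 and 23.9 CPM on HFD. Gbp2, a guanylate-binding protein gene chosen after its values were seen, was at 54.2, 714 and 63.1 CPM with chow feeding, against 66.7, 158 and 77.7 CPM on HFD. As with Cxcl9, chow replicate 2 was the highest library for both genes, while Cxcl10 and Cxcl11 were highest in chow replicate 1. Of the 18 tested rows of the list (17 symbols), 3 rose, 1 fell and 14 did not pass, with a median log2 difference of -0.47 that was 0.23 without chow replicate 2, -1.02 without chow replicate 1 (5 genes fell) and -0.96 without chow replicate 3. The number that fell was 2 with quantile normalization and 0 with the adipocyte scaling. Of all genes tested, 19.1% rose and 16% fell. Irf8, a factor of macrophages and dendritic cells, rose (3.15), as did Ifit2 (1.17; limma adjusted p 0.0532 without HFD replicate 2), and Irf7 fell (-1.09; limma adjusted p 0.0766 with the adipocyte scaling). The part of the interferon programme of chow replicate 2 in the Cxcl9 values was not tested. Without that library the log2 difference of Cxcl9 was -0.34 (limma adjusted p 0.698), and without HFD replicate 2 it was -1.89 (adjusted p 0.0694).

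**Figure D2:**
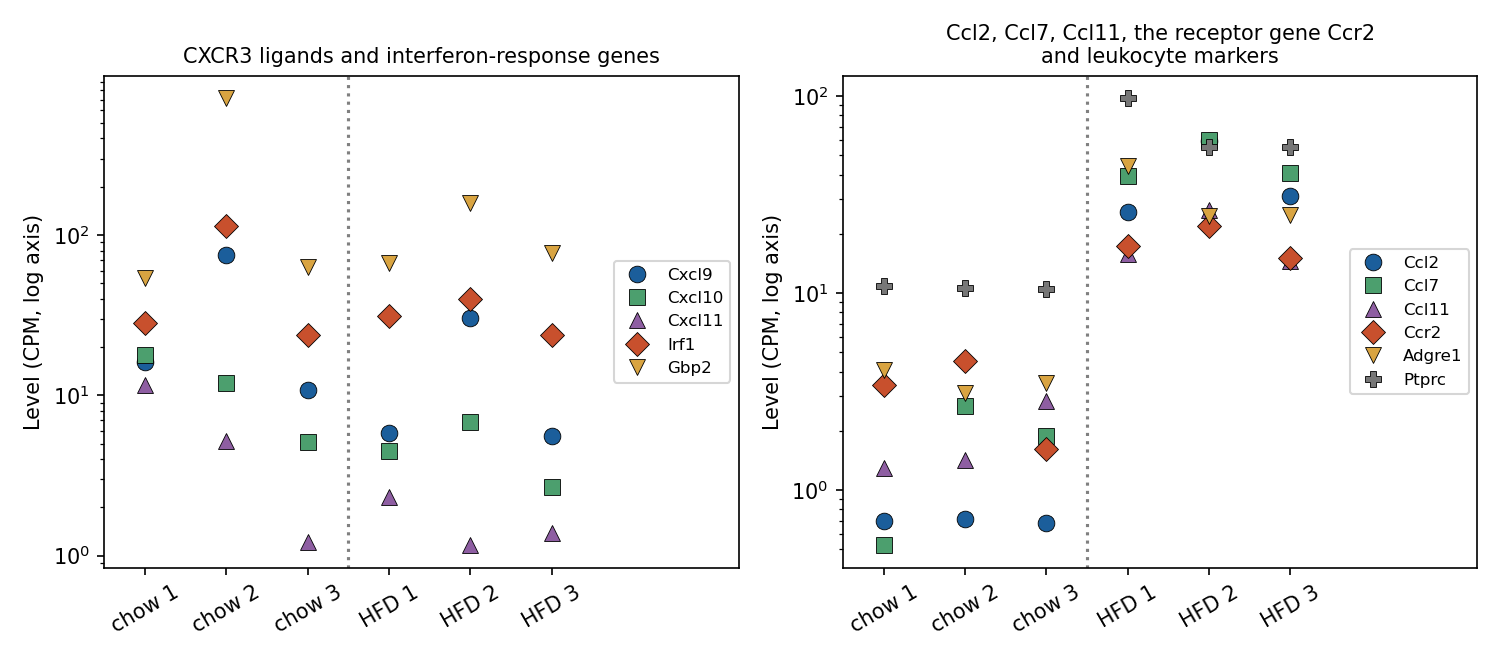
Levels in CPM (log axes) in each of the 6 libraries, chow left and HFD right of the dotted line. The left panel shows the CXCR3 ligand genes with Irf1 and Gbp2, where Cxcl9, Irf1 and Gbp2 peak in chow replicate 2 and Cxcl10 and Cxcl11 do not. The right panel shows Ccl2, Ccl7 and Ccl11 with the receptor gene Ccr2 and the leukocyte genes Adgre1 and Ptprc, all higher in each HFD library than in any chow library. That order held for 25.2% of all genes tested.

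The conventional receptor genes that could be tested rose in HFD too. Of the 18 conventional receptors on the list, 5 were listed and 4 tested, and all 4 rose (the filter at 5 CPM left 2, both risen). Of all genes tested, 19.1% rose and 16% fell. Ccr1 and Cxcr4 had chow means of 0.415 and 0.623 CPM and reached the filter through HFD only, so the filter favoured risen genes here. Without it 4 of 5 rose. Ccr2, the receptor of CCL2 and CCL7 on monocytes, was at 3.41, 4.50 and 1.62 CPM with chow feeding, against 17.4, 22.0 and 15.0 CPM on HFD (log2 difference 2.25, SE 0.29, limma adjusted p 0.0004147). Ccr1, the receptor for CCL6 and CCL9, was at 0.525, 0.441 and 0.277 CPM with chow feeding, against 1.88, 1.73 and 2.07 CPM on HFD. The call of Ccr1 (1.03, limma adjusted p 0.0190) was lost with quantile normalization (0.23, adjusted p 0.508), without HFD replicate 2 (adjusted p 0.0514) and without chow replicate 2 (adjusted p 0.0534). Cxcr4, the receptor of CXCL12, was at 0.871, 0.316 and 0.683 CPM with chow feeding, against 6.28, 4.76 and 3.97 CPM on HFD (log2 difference 1.88). All HFD libraries exceeded all chow libraries for these 3 genes, an order that 25.2% of all genes tested showed. Cxcr6 was under 1 CPM on average and not tested. The genes Ccr3 and Cxcr3, for the receptors of CCL11 and of the CXCL9 group, had no listed row and so were not analysed here.

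Among scavenging receptors, which remove chemokines without calling cells, Ackr3 rose from 7.78, 6.06 and 7.26 CPM in chow to 24.8, 14.8 and 41.9 CPM in HFD. Its log2 difference was 1.70 (SE 0.32, limma adjusted p 0.003181), and HFD replicate 3 was the highest library, as for its ligand gene Cxcl12. Ackr4, which takes up CCL19 and CCL21, was at 5.66, 3.39 and 1.09 CPM with chow feeding, against 2.81, 1.48 and 4.11 CPM on HFD, with overlap (log2 difference -0.11, 95% interval -1.09 to 0.87). Ackr1 and Ackr2 had means under 1 CPM. Ligands outside the symbol rule did not pass: Pf4, the platelet factor gene, had a log2 difference of 0.68 (limma adjusted p 0.103) and Mif -0.28 (limma adjusted p 0.518).

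**Figure D3:**
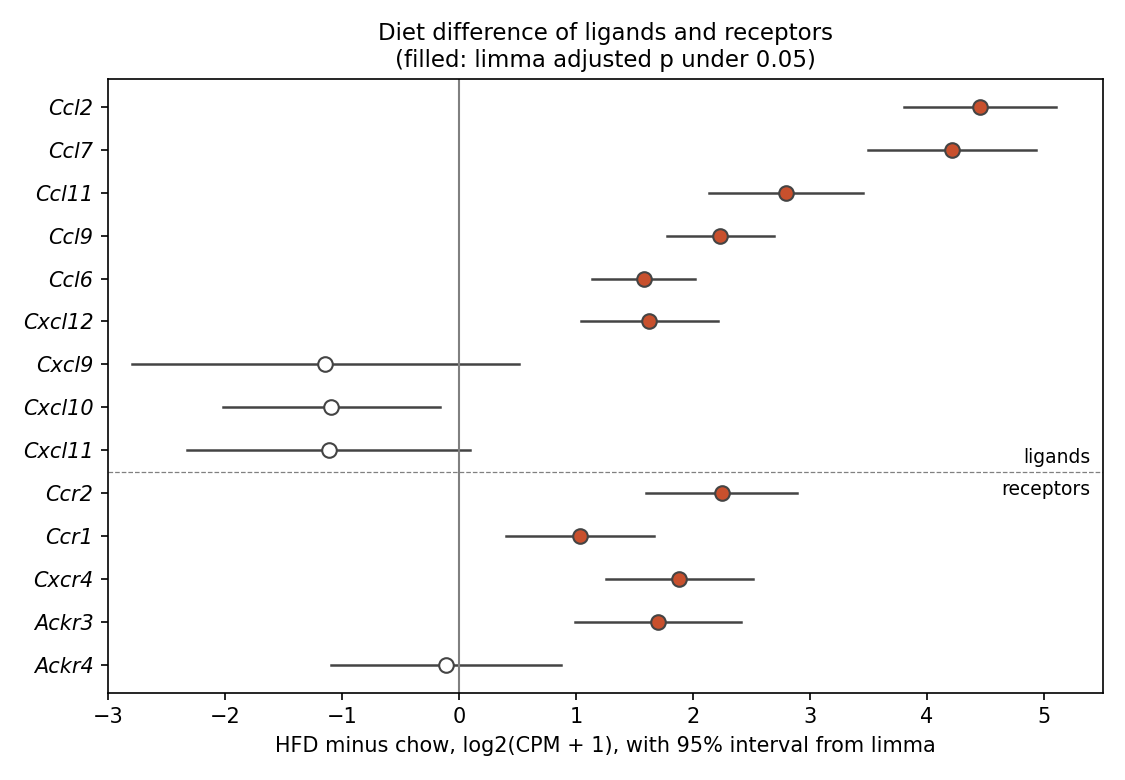
HFD minus chow on the log2(CPM + 1) scale for the 9 tested ligand genes and 5 receptor genes, with 95% intervals from limma (3 libraries per diet) and filled points where the adjusted p was under 0.05. The 6 filled ligand points run from 1.58 for Ccl6 to 4.45 for Ccl2, and the open points of Cxcl9, Cxcl10 and Cxcl11 lie near -1.1.

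Most genes that cut or shed chemokines rose too. Of 10 tested genes of this list 7 rose and 0 fell, with a median log2 difference of 1.23, where 19.1% of all genes tested rose and 16% fell. Without the filter 7 of 11 rose and 0 fell, with a median of 1.03. Ctss, the cathepsin S gene, rose from 1.73, 2.20 and 2.16 CPM to 47.5, 28.6 and 39.1 CPM, and Dpp4, a peptidase that trims chemokines, from 8.34, 7.01 and 4.99 CPM to 16.7, 17.8 and 28.4 CPM. Mmp12, the macrophage elastase gene, rose from 0.310 and 0.132 CPM and the lowest listed value (7, 4 and 0 reads) in chow to 43.4, 24.6 and 29.7 CPM in HFD. Mmp12 thus reached the filter through HFD only. The sheddase genes Adam10 (0.27, limma adjusted p 0.211) and Adam17 (0.14, adjusted p 0.493) did not pass as deposited, and passed with the adipocyte scaling (0.70 with limma adjusted p 0.0184, and 0.57 with adjusted p 0.0499). Of 17 heparan sulfate genes, 6 rose and 3 fell (median 0.15), where 19.1% of all genes tested rose and 16% fell. Of these 17, 1 fell with equal totals and 0 with the adipocyte scaling. Hspg2, the perlecan gene, rose by 1.81, Sdc3 by 2.15 and Sdc1 by 1.69, while Hs2st1, a sulfotransferase gene, fell by 0.62 (limma adjusted p 0.462 with the adipocyte scaling).

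NF-kappaB is the textbook inducer of Ccl2 and Cxcl10. Of 23 tested NF-kappaB genes, 7 rose, 3 fell and 13 did not pass, with a median log2 difference of 0.18, where 19.1% of all genes tested rose and 16% fell. With the adipocyte scaling 11 rose and 0 fell, and without chow replicate 3 the number that fell was 5. Nfkbie, an inhibitor gene, rose by 1.62, the kinase genes Ikbke and Map3k14 by 1.18 and 0.91, and Traf6 and Chuk fell by 0.56 and 0.50, calls that were lost with the adipocyte scaling (limma adjusted p 0.605 and 0.788). Rela, the main activating subunit, had a log2 difference of -0.08 (limma adjusted p 0.768), Nfkb1 -0.28 (adjusted p 0.148) and the inhibitor gene Nfkbia -0.41 (adjusted p 0.0970), and the sign of each turned with the adipocyte scaling (0.35, 0.15 and 0.02). Nfkb1 passed as lower without chow replicate 3 (-0.39, limma adjusted p 0.0380). Nfkbie had a chow mean of 0.767 CPM and reached the filter through HFD only. Without the filter 7 of the 23 NF-kappaB genes again rose and 3 fell.

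The RNA of inducing cytokines could be followed only in part. Of the 17 tested genes of that list 5 rose and 2 fell (median 0.31), against 9 and 1 with the adipocyte scaling and 3 risen without HFD replicate 3. Over all genes tested 19.1% rose and 16% fell. Among the genes of the list, Tnf, Il1b and Il6 had no listed row and so were not analysed here. Tnfrsf1b, a TNF receptor gene, rose by 1.13, the oncostatin M receptor gene Osmr by 0.98 and Lifr by 0.90, while the interferon-gamma receptor gene Ifngr1 fell by 0.59. The call of Osmr ended when either HFD replicate 3 (limma adjusted p 0.0536) or chow replicate 3 (0.0525) was left out, and Ifngr1 with the adipocyte scaling (0.563). Tgfb1 had a log2 difference of 0.77 (limma adjusted p 0.0714), and passed without chow replicate 1 (0.0408) and with the adipocyte scaling (0.00947). Of the 26 tested genes that signal below the receptors 12 rose and 2 fell (median 0.45), among them the leukocyte genes Pik3r5 (2.63) and Dock2 (2.25) up and Rgs2 (-2.82) down. Rgs1, a brake on chemokine receptors in leukocytes, was at 9.71, 5.86 and 6.45 CPM in HFD, and in chow it had 3, 0 and 0 reads. Rgs1 thus reached the filter through HFD only, and without the filter 12 of 26 signalling genes again rose and 2 fell. In the signalling list of 26, 1 gene fell rather than 2 without HFD replicate 2 and without HFD replicate 3. With equal totals 14 rose and 1 fell, and with the adipocyte scaling 18 rose and 1 fell.

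Markers of leukocytes and vessels rose beside the ligands. All 22 macrophage markers were tested, 18 rose, 1 fell and 3 did not pass, where 19.1% of all genes tested rose and 16% fell. None of the 22 was at the lowest value of the table in any library. The number that rose was 16 of 20 tested without HFD replicate 1 and 15 of 18 with the filter at 5 CPM. It was 19 of 22 without the filter and 20 of 22 with equal totals. The summed level of the 22 markers was 237 to 280 CPM in chow and 647 to 898 CPM in HFD. Adgre1 (F4/80) rose from 4.06, 3.10 and 3.51 CPM to 44.0, 24.6 and 24.9 CPM and Ptprc (CD45) from 10.9, 10.6 and 10.5 CPM to 97.7, 55.3 and 54.9 CPM. Cd14, the lipopolysaccharide co-receptor gene, was the macrophage marker that fell (-2.22). HFD replicate 2, the highest library for Ccl2, Ccl7 and Ccl11, had the lowest macrophage marker sum of the HFD libraries (898, 647 and 700 CPM). Replicates 2 and 3 were close in that sum, in Adgre1 and in Ptprc. The receptor gene Ccr2 was highest in HFD replicate 2 (17.4, 22.0 and 15.0 CPM). The part of macrophage RNA in the ligand values was not tested.

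Other cell types moved too, where 19.1% of all genes tested rose and 16% fell. Endothelial markers rose in 11 of 13 tested genes, with sums of 37.6 to 102 CPM in chow and 182 to 355 CPM in HFD, and smooth muscle and pericyte markers in 9 of 9, with sums of 104 to 135 CPM and 657 to 961 CPM. Of 14 fibroblast and progenitor markers 6 rose and 1 fell, with overlapping sums (2652 to 3859 CPM and 2284 to 4572 CPM), and of 9 mesothelial markers 4 rose, with sums of 24.6 to 43.8 CPM and 63.6 to 186 CPM. The number of mesothelial markers that rose was 2 without chow replicate 3 and with quantile normalization or voom weights, and 7 with the adipocyte scaling. Dendritic cell markers rose in 5 of 7 genes and fell in 1 (0 with the adipocyte scaling). Of 17 T, NK and B cell markers, 2 were in the table and neither passed, while 1 passed without HFD replicate 3, with a pseudocount of 0.25 CPM, with the deposited values tested directly and with the adipocyte scaling. Without HFD replicate 1 neither reached the filter. Of 12 neutrophil and mast cell markers, 5 were in the table and 2 were tested, and both rose. S100a8, 1 of the 2, had a chow mean of 0.210 CPM and reached the filter through HFD only. Without the filter 2 of the 5 rose, with a median log2 difference of 0.01. The number that rose was 1 when HFD replicate 1 or 2 or chow replicate 2 or 3 was left out, and 1 with quantile normalization or voom weights. Genes of leukocyte adhesion to vessels rose in 13 of 14, among them Vcam1 (2.68), Itgb2 (3.12) and Cd44 (3.12). Adipocyte markers, which the labelled cell type should hold, were abundant, at 36054 to 52680 CPM in chow and 32185 to 35414 CPM in HFD in sum, and 9 of 19 fell and 2 rose (4 fell with the adipocyte scaling). That scaling is set by the median of these same markers, so it cannot test whether they fell. The parts of these cell types in the ligand values were not tested.

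**Figure D4:**
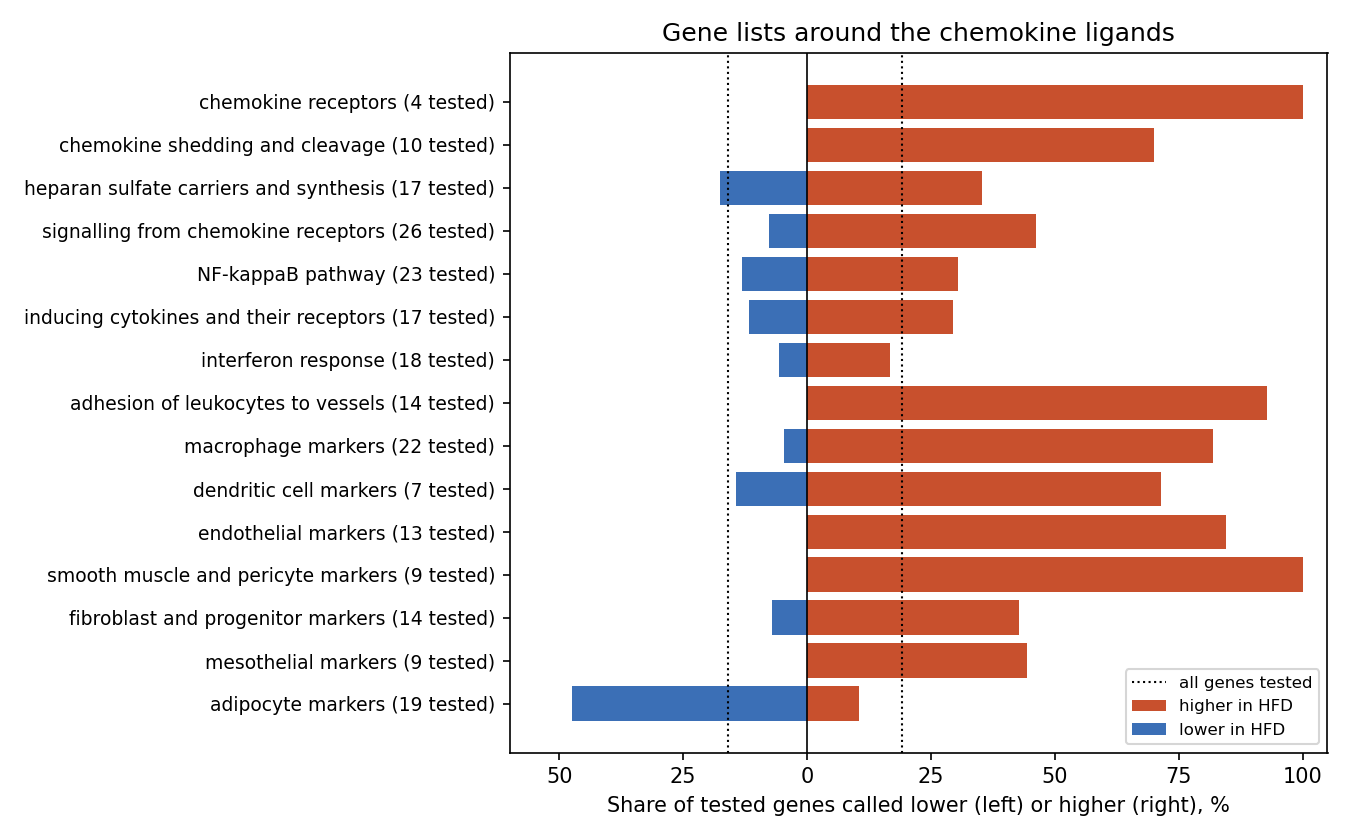
Share of the tested genes of each list called lower (left, blue) or higher (right, orange) in HFD by limma at an adjusted p under 0.05, with the number tested in parentheses and dotted lines at the shares over all genes (16% lower and 19.1% higher). Receptor, adhesion, macrophage, endothelial and smooth muscle lists lie far above the dotted line, whereas the interferon list lies near it.

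The genes whose profiles over the 6 libraries lay nearest to each ligand gene were taken by the root-mean-square difference between centred log2(CPM + 1) profiles, as a description. Nearest to Ccl2 were 1700047G03Rik (0.28), the acyltransferase gene Mogat2 (0.41) and Ptchd4 (0.42), and nearest to Ccl7 were Mogat2 (0.32), the epoxide hydrolase gene Ephx1 (0.39) and Fam198b (0.39). Ccl11 lay nearest to Krt222 (0.22), the adenylate kinase gene Ak1 (0.22) and the smooth muscle actin gene Acta2 (0.26). For Ccl9 the nearest were C1qtnf6 (0.12), Epha2 (0.14) and Svep1 (0.14). For Ccl6 they were AK155734 (0.07), Ptpn3 (0.11) and Olfr558 (0.11), and for Cxcl12 the membrane linker gene Ezr (0.10), Rab27b (0.14) and Tmc6 (0.15). Of these genes, Acta2 is on the smooth muscle list. The profiles were centred but not scaled, so the size of the diet rise largely sets which genes lie near. The measure therefore cannot tell whether a ligand gene follows the markers of a cell type.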

How the data were processed

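Ribosome-bound RNA of 3 chow and 3 HFD libraries was analysed. Per the labels' protocols it was depleted of ribosomal RNA and made into libraries by tagmentation, which does not mark strand. Tools named in the submitters' processing notes, with no roles or versions, include Picard, HISAT2, featureCounts and edgeR, and the build is mm10. The deposited values are log2 CPM per gene, rounded to 2 decimals by the authors; the scale was read from the values. How they filtered low genes is not given in the sources used here.

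A lowest value of -6.85 was shared by 5 libraries. With it subtracted, all anti-logs under 20 reads were whole multiples of 1 read within 0.1 of a read, which gave read numbers and effective library sizes. CPM was taken as the power of 2 of each value, and log2(CPM + 1) entered a two-sided limma test (version 3.58.1, R 4.3.3, trended eBayes) over the 11643 genes whose mean reached 1 CPM, with Benjamini-Hochberg adjustment over all of them at 0.05. The fit was tested on simulated data. The members and lists were chosen with earlier results of these data known. Named list genes are a selection of the 3 highest and 3 lowest called members per list and a fixed set, of which some items are not reported here. The alternatives were another pseudocount, the deposited values used directly, 2 other filters, 3 scalings, voom weights, a replicate block and leaving out each library. Positions and start regions are RefSeq's on GRCm38.p6, which had windows for 6 of the 11 members. Levels of different genes were not compared, since no transcript lengths were used.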

Additional observations from a re-analysis of the deposited data

How the results depend on the processing

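The 6 ligand genes called higher stayed called in all 15 alternatives, with log2 differences of 4.04 to 5.69 for Ccl2, 3.85 to 5.05 for Ccl7, 2.42 to 3.54 for Ccl11, 2.00 to 2.61 for Ccl9, 1.36 to 1.96 for Ccl6 and 1.31 to 2.04 for Cxcl12. The number of ligand genes called lower, 0 as deposited, was 2 with quantile normalization, 2 with voom weights and 0 to 2 when 1 library was left out (2 without chow replicate 3). Over all genes, leaving out 1 library gave 1683 to 2102 higher and 1162 to 1740 lower genes, and the adipocyte scaling 4109 and 418. With the replicate number as a block, 3 ligand genes were called lower, Cxcl9 (limma adjusted p 0.000783), Cxcl10 (0.00785) and Cxcl11 (0.0414), Tgfb1 (0.0378) and Nfkbia (0.0359) passed too, 5 interferon genes fell in place of 1 and 5 NF-kappaB genes in place of 3, 1 lymphocyte marker rose in place of 0, and 2594 genes rose and 2245 fell. Deviations of same-numbered libraries correlated at 0.43, 0.23 and 0.09, and chow replicate 3 correlated better with HFD replicate 2 (0.15) than with its own number, so the numbers were not taken as pairs.

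Differences that did not pass turned sign for Ackr4 (0.18 with the adipocyte scaling, -0.57 to 0.27 when 1 library was left out, above 0 without HFD replicate 2 or chow replicate 1), Mif (0.12 with the adipocyte scaling, -0.50 to 0.11 with 1 library left out, above 0 without chow replicate 3), Pf4 (-0.084 with quantile normalization), Irf1 and Gbp2 (-0.86 to 0.25 and -1.18 to 0.67, above 0 without chow replicate 2), Rela (0.034 with equal totals, 0.35 with the adipocyte scaling, -0.18 to 0.12 with 1 library left out, above 0 without chow replicate 3), Nfkb1 (0.15) and Nfkbia (0.02), the last pair with the adipocyte scaling. The cause was not tested. Pf4 passed with that scaling (0.91, limma adjusted p 0.0380). Chow replicate 3 limits what can be seen of low genes, since 3 reads there stand for 0.404 CPM. Cxcl11 had no value with the filter at 5 CPM.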
